A study of Homo sapiens with 9 samples.

Results

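Nuclear receptors are transcription factors of 1 protein family, most of which are switched by a small fat-soluble ligand such as a bile acid, a fatty acid, a retinoid or a steroid. A list of 44 genes of the family was read in HepG2 cells, and HNF4, the liver-defining member, was not on it. Members were the transcript clusters that carry a listed gene's symbol in the platform annotation, with the brightest cluster kept per gene. The array gave values for 38 of the 44, among 17687 genes in all, and no member had more than 1 cluster. NR1I2, NR1H2, NR1H4, RXRA, NR2F2 and NR0B1 were not analysed here.

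HepG2 is an established human liver cancer cell line. It was grown without SPARC (untreated) or with 200 or 800 ng/ml of recombinant SPARC, a glycoprotein secreted into the extracellular matrix, and RNA was taken after 24 h. There were 9 arrays, 3 per group. The extraction protocol in the labels names untreated cells and the 800 ng/ml dose, while the sample labels name both doses. HepG2 is 1 line, and no label states that the arrays of a group came from separate cultures, so the p-values reflect only how far these samples spread, and that spread may be technical.

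A nuclear receptor binds DNA at short elements built around a hexamer, and many bind them as a pair with a retinoid X receptor. With its ligand it commonly sheds a corepressor complex, takes up coactivators and raises transcription, while some members have no known ligand or repress constitutively. In hepatocytes the family sets the enzymes of drug, bile acid, cholesterol and fatty acid metabolism. The REV-ERB receptors NR1D1 and NR1D2 are repressors of the circadian clock, in which CLOCK with BMAL1 acts through E-boxes and the factors DBP, TEF and HLF act through D-boxes.

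Among the receptors the smallest p of any comparison belonged to NR1D2, so the stretch before its start is shown with those clock elements in capitals, beside that of its paralogue NR1D1. The sequences are from RefSeq, assembly GRCh38.p14, and run 5′ to 3′ along the gene's strand. The NR1D2 stretch, which belongs to the second of its 2 windows, lies at chr3:23945871-23946120 on the plus strand and the NR1D1 stretch at chr17:40100590-40100839 on the minus strand. Each is the 250 bases before an annotated start.
NR1D2: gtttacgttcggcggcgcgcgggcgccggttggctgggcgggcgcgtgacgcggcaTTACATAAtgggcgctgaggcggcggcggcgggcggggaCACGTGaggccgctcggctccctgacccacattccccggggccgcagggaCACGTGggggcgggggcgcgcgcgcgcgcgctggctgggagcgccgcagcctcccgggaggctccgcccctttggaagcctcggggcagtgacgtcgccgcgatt
NR1D1: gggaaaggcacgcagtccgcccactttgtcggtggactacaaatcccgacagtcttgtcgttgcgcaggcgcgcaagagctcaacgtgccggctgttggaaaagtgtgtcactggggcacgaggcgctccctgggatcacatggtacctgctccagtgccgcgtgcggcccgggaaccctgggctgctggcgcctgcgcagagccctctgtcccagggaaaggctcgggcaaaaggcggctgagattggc
Capitals mark the E-box CACGTG and the D-box TTATGTAA, searched on both strands in windows that also hold the 50 bases after the start. In NR1D2 the E-box begins at bases 96 and 146, and the D-box stands at base 57 as its reverse complement TTACATAA. The NR1D1 window and the other NR1D2 window hold neither. Of 35116 windows in the RefSeq table, 7.26% held the E-box and 0.886% the D-box. Windows were found for 34 of the 38 measured receptors, of which 6 held an E-box (ESR2, NR1D2, NR2C1, NR5A1, PGR and RARA) and 2 a D-box (NR1D2 and NR3C1). The receptor half-site AGGTCA was in the windows of 9 of the 34 receptors and in 13.8% of all windows. A receptor counted if any of its windows held the motif, while the shares are per window, so these counts and shares are not directly comparable. A match is a description of the letters and not evidence of binding.

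Values are log2 signals as deposited, so a difference of 1 is a 2-fold ratio, and no level of 1 gene is set against that of another because probes differ in brightness. Untreated replicate 2 stood apart. Its correlation with the other arrays over all transcript clusters was 0.891 to 0.920, while the other 8 arrays correlated at 0.979 to 0.991 with each other. Differences from untreated are therefore given over all 9 arrays and over the 8 arrays without untreated replicate 2, except where a number of arrays is named alone. Between the doses the difference is the same either way, and its SE is that of 8 arrays unless 9 are named. Summed hepatocyte markers were similar in every dose group (mean log2 signal of 9 measured of 11 listed genes, 9.65 to 10.03 in untreated, 9.92 to 10.00 at 200 ng/ml and 10.00 to 10.03 at 800 ng/ml).

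The receptors showed the deviation of untreated replicate 2 in the same directions as other genes, though less strongly among the dimmer ones. Of the 20 receptors brighter than the median gene, 16 were lower in it than the mean of untreated replicates 1 and 3, with a median of −0.82 against −0.72 over all brighter genes. Of all brighter genes 81.8% were lower. Of the 18 dimmer receptors, 11 were higher in it, where 75.1% of all dimmer genes were, with a median of 0.26 against 0.45. The glucocorticoid receptor NR3C1 deviated most, by −2.05, followed by the oxysterol receptor NR1H3 (LXR alpha) at 1.80, NR2C1 at −1.53 and the vitamin D receptor VDR at 1.51. In the other 8 arrays the receptors were even, with a median SD within groups of 0.16 against 0.18 over all genes, from 0.033 for NR2C2 to 0.39 for NR4A2. None of the 38 spanned more than 1 on the log2 scale within a dose group, the widest spans being 0.92 for NR4A2 at 200 ng/ml and 0.73 for NR2E3 at 800 ng/ml.

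**Figure D1:**
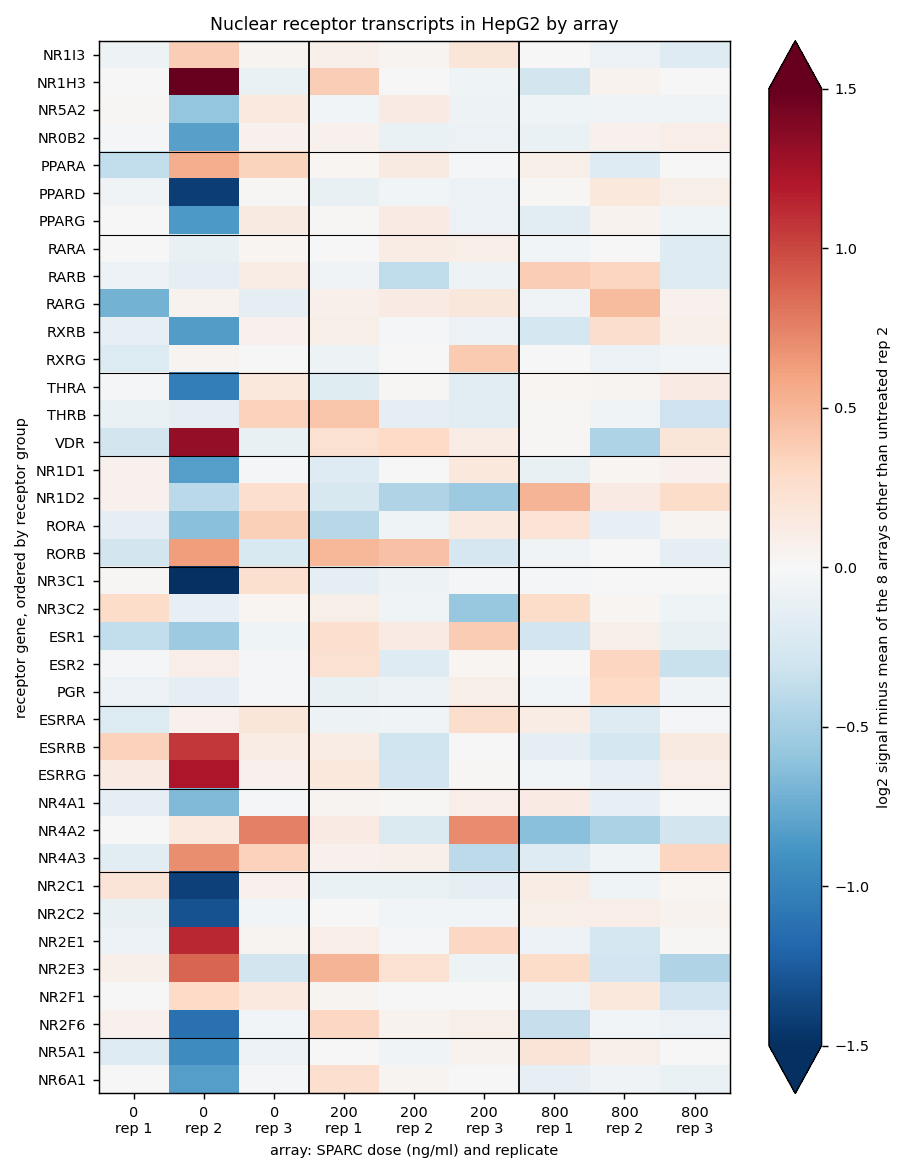
Log2 signal of each of the 38 measured receptors (rows, in receptor groups) on each of the 9 arrays (columns, by SPARC dose in ng/ml and replicate), shown as the difference from its mean over 8 arrays (untreated replicate 2 left out of the mean), with colours ending at −1.5 and 1.5. The second column, untreated replicate 2, holds the strongest colours, with NR3C1 and PPARD low and NR1H3 and VDR high, while most other cells are pale.

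No receptor passed an adjusted p under 0.05 in any comparison (limma with Benjamini-Hochberg adjustment over 17687 genes), with all 9 arrays or with 8, and the share of all genes called was 0% in each of the 6 fits. At 200 ng/ml against untreated, 2 of 38 receptors had an unadjusted p under 0.05 with 9 arrays, ESR1 higher and ESRRB lower, where 1.78% of all genes did. With 8 arrays there were 4, namely ESR1, RARG and RORB higher and NR1D2 lower, where 11.3% of all genes did. At 800 ng/ml against untreated there were 3 with 9 arrays (NR5A1 higher, NR4A2 and ESRRB lower), against 4.17% of all genes, and 2 with 8 arrays (RARG higher, NR4A2 lower), against 5.36%. Between the doses there were 2 with 9 arrays (NR1D2 higher and NR4A2 lower at 800 ng/ml), against 2.41%, and 4 with 8 arrays (NR1D2 higher, NR4A2, ESR1 and NR2F6 lower), against 15.3%. The counts lie within a few receptors of those shares and are read as no result about the family. A fit with array weights, which gave untreated replicate 2 a weight of 0.040 and untreated replicate 1 a weight of 10.66, called 6 receptors at 200 ng/ml (ESR1 and RARG among them higher, NR1D2 lower with an adjusted p of 0.0122) and RARG at 800 ng/ml, whereas array weights over the other 8 arrays called 0. The weighted fit of 9 arrays also called many genes outside the family (counts in the last section). Its calls are likewise read as no result about the family.

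Groups of 3 arrays did not overlap for 5 receptors at 200 ng/ml against untreated, where 6.98% of all genes did not overlap. RARG, ESR1, NR4A1 and NR5A1 were higher and ESRRB was lower. At 800 ng/ml against untreated there were 4, with PPARD (by almost a tie), NR2C2 and NR5A1 higher and NR4A2 lower, against 11.2% of all genes. Between the doses there were 10, against 21.9%. PPARD, THRA, NR1D2, NR2C1 and NR2C2 were higher at 800 ng/ml, and NR1I3, ESR1, NR4A2, NR2F6 and NR6A1 were lower.

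The median difference over the 38 receptors was 0.072 at 200 ng/ml and 0.12 at 800 ng/ml, each against untreated, with 9 arrays, and 0.023 and −0.026 with 8. Over all genes it was 0.027 and 0.044 with 9 arrays and −0.016 and −0.0060 with 8. Between the doses the median was −0.038 for the receptors and 0.013 for all genes. The 95% interval of the ratio lay inside 2-fold either way for 29, 26 and 32 receptors in the 3 comparisons (200 against untreated, 800 against untreated, 800 against 200) with 9 arrays and for 38, 36 and 36 with 8. It lay inside 1.5-fold for 8, 7 and 10 with 9 arrays and for 26, 32 and 29 with 8. Of all genes, 83.3%, 72.8% and 86.2% lay inside 2-fold with 9 arrays and 96.5%, 97.5% and 97.3% with 8. Inside 1.5-fold the shares of all genes were 24.0%, 20.9% and 25.3% with 9 arrays and 61.2%, 69.3% and 68.0% with 8. The receptors whose interval with 8 arrays reached past 2-fold were RARG and NR4A2 at 800 ng/ml against untreated and NR1D2 and NR4A2 between the doses. Both doses were compared with the same untreated arrays, so the comparisons are not independent.

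**Figure D2:**
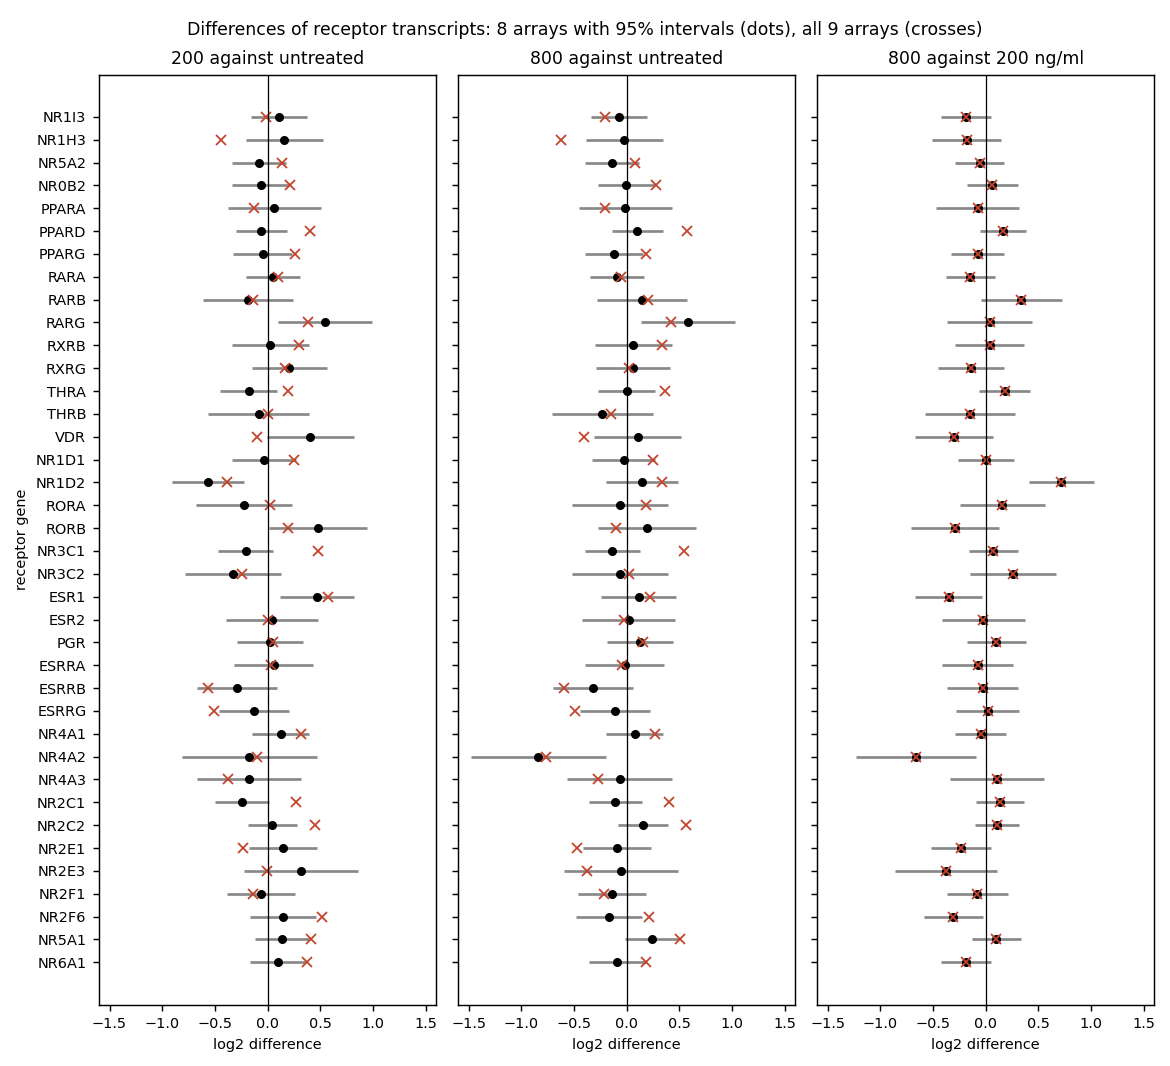
Log2 difference of each receptor in the 3 comparisons (panels, SPARC doses in ng/ml), with dots and 95% intervals from the limma fit of the 8 arrays without untreated replicate 2 and crosses from the fit of all 9 arrays. Crosses lie off their dots in both comparisons with untreated and on them between the doses, where the interval of NR1D2 is the one farthest from 0.

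The receptors of the clock held the member with the smallest p. NR1D2 (REV-ERB beta) had log2 signals of 5.10, 4.64 and 5.30 in untreated replicates 1, 2 and 3, 4.80, 4.59 and 4.50 at 200 ng/ml and 5.55, 5.17 and 5.32 at 800 ng/ml. All 3 arrays at 200 ng/ml were below all 3 at 800 ng/ml, and untreated replicates 1 and 3 lay between the highest 200 ng/ml array and the highest 800 ng/ml array, while untreated replicate 2 lay among the 200 ng/ml arrays. NR1D2 was 1.64 times as high at 800 as at 200 ng/ml, a log2 difference of 0.72 ± 0.22 (SE, n = 3 and 3; 95% interval 0.24 to 1.19). Its limma p was 0.00688 and its adjusted p 0.999. With 8 arrays, where the difference is the same and the pooled spread smaller, the SE was 0.14, the p 0.000468 and the adjusted p 0.167 in limma. Against untreated, NR1D2 differed by −0.38 ± 0.22 at 200 ng/ml with 9 arrays (limma adjusted p 0.966) and by −0.57 ± 0.15 with 8 (limma adjusted p 0.31). At 800 ng/ml it differed by 0.33 ± 0.22 and 0.15 ± 0.15.

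The other clock receptors did not share that pattern by their values. NR1D1 (REV-ERB alpha), the closest relative of NR1D2, had log2 signals of 7.01, 6.12 and 6.93 in untreated replicates 1, 2 and 3, 6.75, 6.96 and 7.10 at 200 ng/ml and 6.84, 6.98 and 7.01 at 800 ng/ml. Outside untreated replicate 2 its groups overlapped, and its difference between the doses was 0.0037 ± 0.12 with 8 arrays. RORA and RORB bind the same DNA elements as the REV-ERBs and activate where those repress. RORA had group means of 4.71 ± 0.49, 4.73 ± 0.28 and 4.89 ± 0.17 (SD, n = 3) in untreated, 200 and 800 ng/ml, with overlapping arrays. RORB had log2 signals of 4.18, 5.07 and 4.22 in untreated replicates 1, 2 and 3, 4.95, 4.88 and 4.20 at 200 ng/ml and 4.39, 4.46 and 4.31 at 800 ng/ml. At 200 ng/ml its replicates 1 and 2 were high and replicate 3 stood at the level of untreated replicates 1 and 3, so the groups overlapped. Its difference from untreated was 0.19 ± 0.28 with 9 arrays and 0.48 ± 0.21 with 8 (limma adjusted p 0.427).

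The other genes of the clock were read from a list of 15, of which 14 were measured, and none was called. With 8 arrays, 4 were higher and 10 lower at 200 ng/ml than untreated (median −0.068), and 6 were higher and 8 lower at 800 than at 200 ng/ml (median −0.033, all genes 0.013). With 9 arrays the split at 200 ng/ml was 11 higher and 3 lower (median 0.18). At 800 ng/ml against untreated, 12 were higher and 2 lower with 9 arrays (median 0.14, largest difference 0.85). With 8 arrays 5 were higher and 9 lower there (median −0.049), and the largest difference was 1.19. In that comparison 1 of 14 had an unadjusted limma p under 0.05 with 8 arrays, where 5.36% of all genes did, and 0 had one with 9. CLOCK, the activating partner of BMAL1, had log2 signals of 5.78, 4.36 and 5.22 in untreated replicates 1, 2 and 3, 5.07, 5.27 and 5.08 at 200 ng/ml and 5.82, 5.47 and 5.90 at 800 ng/ml. Its arrays at 800 ng/ml were all above those at 200 ng/ml, while untreated replicates 1 and 3 were far apart, and the difference between the doses was 0.59 ± 0.17 (limma p 0.0067, adjusted p 0.212, 8 arrays). TEF, a D-box activator, had signals of 4.20, 4.18 and 4.33 in untreated replicates 1, 2 and 3, 5.30, 4.63 and 4.74 at 200 ng/ml and 4.47, 4.12 and 4.30 at 800 ng/ml. Its 200 ng/ml arrays were above every other array, by 0.63 ± 0.20 against untreated, and they gave a log2 difference of −0.59 ± 0.18 at 800 against 200 ng/ml (limma adjusted p 0.334 and 0.218, 8 arrays). With 9 arrays TEF differed by 0.65 ± 0.21 from untreated. NFIL3, the D-box repressor, differed at 200 ng/ml against untreated by 0.075 ± 0.29 with 9 arrays and −0.32 ± 0.13 with 8, a turn of direction, and by 0.26 ± 0.12 between the doses. PER3, a clock repressor, differed at 200 ng/ml by −0.19 ± 0.24 with 9 arrays and −0.44 ± 0.15 with 8.

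**Figure D3:**
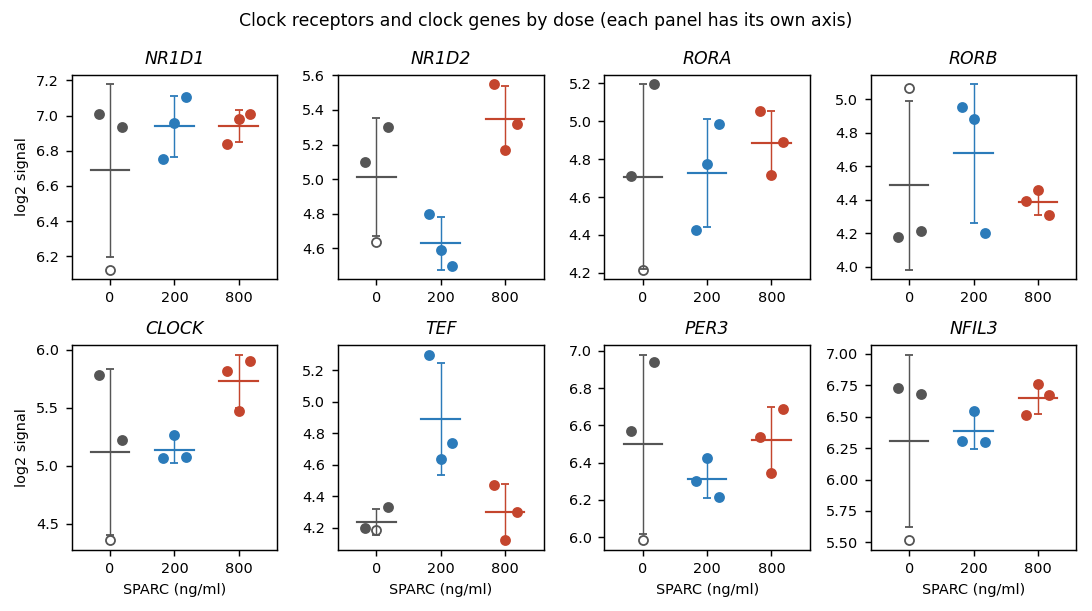
Log2 signal (vertical axes, 1 per panel) against SPARC dose in ng/ml (horizontal axes) for the 4 clock receptors and for CLOCK, TEF, PER3 and NFIL3. Points are arrays, with untreated replicate 2 open, the line is the mean and the bar the SD of 3 arrays. NR1D2 and CLOCK at 800 ng/ml lie above their 200 ng/ml arrays, TEF lies below, and NR1D1 overlaps.

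The NR4A receptors are immediate-early genes, induced within minutes to hours by many stimuli and held to act without a ligand. NR4A2 (NURR1) had log2 signals of 3.64, 3.79 and 4.39 in untreated replicates 1, 2 and 3, 3.76, 3.42 and 4.34 at 200 ng/ml and 3.01, 3.16 and 3.36 at 800 ng/ml. The 3 arrays at 800 ng/ml were below all 6 others, while the untreated and the 200 ng/ml arrays overlapped and spread widely. NR4A2 at 800 ng/ml was 0.59 times the untreated level, a log2 difference of −0.76 ± 0.27 (SE, n = 3 and 3; 95% interval −1.36 to −0.16; limma p 0.0169, adjusted p 0.659). With 8 arrays it was −0.84 ± 0.28 (limma adjusted p 0.902). Against 200 ng/ml it was −0.66 ± 0.27 with 9 arrays (limma adjusted p 0.999), and without replicate 3 of the 200 ng/ml group, the highest there, it was −0.41. Without untreated replicate 3 the difference from untreated was −0.54. The signal of NR4A2 is dim, and the deposited table has no detection calls. The same limit holds for the 18 receptors below the median gene (5.56), among them NR1D2, ESR1 and RARG.

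Its relatives showed no such ordering. NR4A1 (NUR77) had group means of 6.37 ± 0.34, 6.69 ± 0.042 and 6.64 ± 0.13 (SD, n = 3), its 200 ng/ml arrays standing above the untreated ones by 0.32 ± 0.21 with 9 arrays and 0.12 ± 0.12 with 8. NR4A3 (NOR1) had means of 3.19 ± 0.44, 2.82 ± 0.27 and 2.92 ± 0.27, and its arrays overlapped between all groups. Of 12 further immediate-early genes such as EGR1 and FOS, 11 were measured and none was called. With 8 arrays 0 of 11 had an unadjusted limma p under 0.05 in any comparison, and at 800 ng/ml 3 were higher and 8 lower than untreated, with a median of −0.060 against −0.0060 over all genes. With 9 arrays 7 were higher and 4 lower, at a median of 0.10 against 0.044.

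Among the steroid receptors, ESR1 (estrogen receptor alpha) had log2 signals of 3.86, 3.69 and 4.17 in untreated replicates 1, 2 and 3, 4.48, 4.35 and 4.61 at 200 ng/ml and 3.94, 4.33 and 4.12 at 800 ng/ml. Every 200 ng/ml array was above every untreated and every 800 ng/ml array, and the untreated and 800 ng/ml arrays overlapped. At 200 ng/ml it was 1.49 times the untreated level, a log2 difference of 0.58 ± 0.20 (SE, n = 3 and 3; 95% interval 0.14 to 1.01; limma p 0.0145, adjusted p 0.966). With 8 arrays it was 0.47 ± 0.16 (limma adjusted p 0.35). From 200 to 800 ng/ml it differed by −0.35 ± 0.14 (limma adjusted p 0.288, 8 arrays). Of the 5 estrogen receptor target genes listed, all measured, TFF1 had signals of 3.84, 4.72 and 4.33 in untreated replicates 1, 2 and 3, 4.75, 4.58 and 4.42 at 200 ng/ml and 4.01, 4.13 and 4.09 at 800 ng/ml, and it differed by 0.50 ± 0.16 at 200 ng/ml and by −0.51 ± 0.15 from 200 to 800 ng/ml (limma adjusted p 0.345 and 0.212, 8 arrays). With 9 arrays its difference at 200 ng/ml was 0.29 ± 0.23, untreated replicate 2 being its highest untreated array. Of the 5, 3 were higher and 2 lower at 200 ng/ml, with a median of 0.13 with 8 arrays and 0.095 with 9.

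NR3C1, the glucocorticoid receptor, had log2 signals of 6.99, 5.05 and 7.21 in untreated replicates 1, 2 and 3, 6.83, 6.89 and 6.95 at 200 ng/ml and 6.95, 6.97 and 6.97 at 800 ng/ml. Apart from untreated replicate 2 its arrays lay within 6.83 to 7.21, and the positive differences of 9 arrays, 0.47 ± 0.44 at 200 and 0.55 ± 0.44 at 800 ng/ml, became −0.21 ± 0.11 and −0.14 ± 0.11 with 8. Of 10 glucocorticoid receptor targets, 8 were measured and none was called. Between the doses with 8 arrays 2 had an unadjusted limma p under 0.05, where 15.3% of all genes did. Both were lower at 800 ng/ml, namely the gluconeogenic enzyme PCK1 at −0.39 ± 0.14 and the transcription factor KLF9 at −0.38 ± 0.14. Against untreated, the target MT2A was higher, its arrays at both doses lying above every untreated array. It differed by 0.58 at 200 and 0.61 at 800 ng/ml with 9 arrays (limma adjusted p 0.966 and 0.659), and by 0.26 at 800 ng/ml with 8 (limma adjusted p 0.912). At 200 ng/ml its mean was 9.86, against 9.63 in untreated replicates 1 and 3. The list did not share that direction. With 9 arrays 4 were higher and 4 lower at 200 ng/ml (median 0.036) and 3 higher and 5 lower at 800 ng/ml (median −0.22). With 8 arrays 5 were higher and 3 lower at 200 ng/ml (median 0.12) and 3 higher and 5 lower at 800 ng/ml (median −0.022). The mineralocorticoid receptor NR3C2 had group means of 3.38 ± 0.20, 3.14 ± 0.35 and 3.40 ± 0.18 (SD, n = 3), with 200 ng/ml replicate 3 the lowest array, and differed by 0.26 ± 0.18 from 200 to 800 ng/ml. ESR2 (estrogen receptor beta) had means of 3.71 ± 0.07, 3.71 ± 0.21 and 3.69 ± 0.33, and the progesterone receptor PGR of 2.71 ± 0.063, 2.76 ± 0.10 and 2.86 ± 0.19. In both the groups overlapped.

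The estrogen-related receptors resemble estrogen receptors in sequence but bind no estrogen, and drive mitochondrial and energy metabolism genes. ESRRB had log2 signals of 5.07, 5.79 and 4.84 in untreated replicates 1, 2 and 3, 4.83, 4.43 and 4.73 at 200 ng/ml and 4.59, 4.46 and 4.86 at 800 ng/ml. Untreated replicate 2 was the highest array and replicate 1 the next, and the 2 dosed groups overlapped. ESRRB differed from untreated by −0.57 ± 0.26 at 200 and −0.60 ± 0.26 at 800 ng/ml with 9 arrays (limma adjusted p 0.966 and 0.659). With 8 arrays these were −0.29 ± 0.17 and −0.32 ± 0.17. ESRRG had group means of 4.77 ± 0.65, 4.27 ± 0.23 and 4.29 ± 0.11 (SD, n = 3). Its difference at 200 ng/ml was −0.50 ± 0.29 with 9 arrays and −0.13 ± 0.15 with 8, the larger value resting on untreated replicate 2 at 5.53. ESRRA, the form with the broadest expression, had means of 6.26 ± 0.20, 6.29 ± 0.19 and 6.22 ± 0.15 and overlapping groups.

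The retinoic acid receptors bind all-trans retinoic acid and work with RXR. RARG had log2 signals of 3.51, 4.28 and 4.09 in untreated replicates 1, 2 and 3, 4.30, 4.34 and 4.40 at 200 ng/ml and 4.17, 4.70 and 4.29 at 800 ng/ml. Untreated replicate 1 was the lowest array by far, and the 200 ng/ml arrays lay close together just above the others of the untreated group. RARG differed from untreated by 0.39 ± 0.23 at 200 and 0.42 ± 0.23 at 800 ng/ml with 9 arrays, and by 0.55 ± 0.20 and 0.58 ± 0.20 with 8 (limma adjusted p 0.38 and 0.902). Without untreated replicate 1 the differences were 0.16 and 0.20, the lowest of the values with 1 array left out. RARB, itself a classical retinoic acid target, had group means of 2.96 ± 0.14, 2.83 ± 0.18 and 3.16 ± 0.31 (SD, n = 3) and differed by 0.34 ± 0.17 from 200 to 800 ng/ml, with 800 ng/ml replicate 3 at the level of the lower dose. RARA had means of 7.71 ± 0.076, 7.80 ± 0.066 and 7.66 ± 0.10 and was even across all 9 arrays, untreated replicate 2 included.

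Of the RXR partners, RXRB had group means of 7.73 ± 0.48, 8.02 ± 0.094 and 8.06 ± 0.26 (SD, n = 3) and RXRG of 2.90 ± 0.13, 3.06 ± 0.25 and 2.92 ± 0.049, and their groups overlapped in every comparison. Of 8 retinoic acid receptor targets, 5 were measured and none was called. CYP26A1, the retinoic acid hydroxylase, had signals of 3.30, 3.71 and 3.34 in untreated replicates 1, 2 and 3, 3.96, 3.64 and 3.46 at 200 ng/ml and 3.40, 3.38 and 3.24 at 800 ng/ml. It differed at 200 ng/ml by 0.24 ± 0.20 with 9 arrays and 0.37 ± 0.15 with 8, and by −0.35 ± 0.14 from 200 to 800 ng/ml (limma adjusted p 0.418 and 0.286, 8 arrays). All 5 were higher at 200 ng/ml than untreated with 8 arrays, at a median of 0.061, and 2 of 5 with 9 arrays, at a median of −0.027.

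VDR, which binds the active form of vitamin D, had log2 signals of 4.08, 5.67 and 4.24 in untreated replicates 1, 2 and 3, 4.58, 4.64 and 4.46 at 200 ng/ml and 4.37, 3.89 and 4.53 at 800 ng/ml. The 200 ng/ml arrays were all above untreated replicates 1 and 3 and below untreated replicate 2, so that its difference at 200 ng/ml was −0.10 ± 0.36 with 9 arrays and 0.41 ± 0.18 with 8 (limma adjusted p 0.445). CYP24A1, the enzyme that degrades vitamin D and a direct VDR target, differed at 200 ng/ml by −0.049 ± 0.28 with 9 arrays and −0.41 ± 0.14 with 8, and by 0.39 ± 0.13 from 200 to 800 ng/ml. The thyroid hormone receptor THRA had group means of 7.78 ± 0.64, 7.97 ± 0.11 and 8.15 ± 0.049 (SD, n = 3), with 800 ng/ml above 200 ng/ml in every array by 0.18 ± 0.11. THRB, the main form in liver, had means of 6.60 ± 0.27, 6.61 ± 0.33 and 6.46 ± 0.18 and overlapping groups. DIO1, the deiodinase induced by thyroid hormone in liver, differed by 0.42 ± 0.13 between the doses (limma adjusted p 0.218, 8 arrays). The 6 thyroid hormone and vitamin D targets were all measured, none was called, and 4 were higher and 2 lower at 800 than at 200 ng/ml with a median of 0.12.

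The receptors of bile acid, sterol and drug metabolism each spanned at most 0.65 on the log2 scale over the 8 arrays other than untreated replicate 2. NR0B2 (SHP), the bile-acid-induced corepressor without a DNA-binding domain, had log2 signals of 9.20, 8.40 and 9.28 in untreated replicates 1, 2 and 3, 9.28, 9.12 and 9.12 at 200 ng/ml and 9.12, 9.28 and 9.31 at 800 ng/ml. Untreated replicate 2 was low and the other 8 lay within 9.12 to 9.31. Its 95% intervals against untreated were −0.33 to 0.20 at 200 and −0.27 to 0.27 at 800 ng/ml with 8 arrays, and −0.31 to 0.74 and −0.25 to 0.80 with 9. NR5A2 (LRH-1), which drives bile acid synthesis genes, lay within 7.28 to 7.50 on those 8 arrays and differed at 800 ng/ml by 0.079 ± 0.21 with 9 arrays and −0.14 ± 0.11 with 8. NR1H3, the sensor of oxysterols, had signals of 6.76, 8.51 and 6.67 in untreated replicates 1, 2 and 3, 7.14, 6.77 and 6.70 at 200 ng/ml and 6.48, 6.82 and 6.77 at 800 ng/ml. Its 200 and 800 ng/ml arrays overlapped with untreated replicates 1 and 3, and its difference at 800 ng/ml was −0.62 ± 0.41 with 9 arrays and −0.022 ± 0.16 with 8. NR1I3 (CAR), the drug-sensing receptor, had means of 4.70 ± 0.23, 4.68 ± 0.074 and 4.50 ± 0.10 (SD, n = 3), with each 800 ng/ml array below each 200 ng/ml array and a difference of −0.19 ± 0.10.

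None of the target genes of these receptors was called. Of 5 FXR targets all were measured, and 0 had an unadjusted limma p under 0.05 in any comparison with 9 or 8 arrays. Of 9 LXR targets, 8 were measured. The sterol exporter ABCG5 differed at 200 ng/ml by −0.45 ± 0.13 with 8 arrays (limma p 0.00561, adjusted p 0.323) and by −0.0037 ± 0.32 with 9, so its value rests on leaving out untreated replicate 2. The phospholipid enzyme LPCAT3 differed by 0.40 ± 0.16 between the doses. The LXR list as a whole had 5 higher and 3 lower at 200 ng/ml with 8 arrays, a median of 0.046, and 6 higher and 2 lower with 9, a median of 0.21. Of 8 PXR and CAR targets, 6 were measured, and the drug-metabolizing CYP2C8 differed by 0.47 ± 0.16 from 200 to 800 ng/ml (limma adjusted p 0.241). The 6 genes of bile acid synthesis and uptake had 3 higher and 3 lower at 200 ng/ml and 5 higher and 1 lower at 800 ng/ml with 8 arrays. With 9 arrays there were 2 higher and 4 lower at 200 ng/ml and 3 higher and 3 lower at 800 ng/ml, and 0 had an unadjusted limma p under 0.05 with 9 or 8.

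The fatty acid receptors each spanned at most 0.71 on the log2 scale over the same 8 arrays. PPARA, the driver of hepatic fatty acid oxidation, had log2 signals of 6.12, 7.05 and 6.84 in untreated replicates 1, 2 and 3, 6.53, 6.63 and 6.47 at 200 ng/ml and 6.58, 6.31 and 6.51 at 800 ng/ml. Untreated replicate 1 was the lowest and untreated replicate 2 the highest, with both doses between them, and its differences were −0.13 ± 0.24 at 200 and −0.20 ± 0.24 at 800 ng/ml with 9 arrays and 0.062 ± 0.20 and −0.015 ± 0.20 with 8. PPARD had signals of 7.34, 5.98 and 7.42 in untreated replicates 1, 2 and 3, 7.29, 7.36 and 7.31 at 200 ng/ml and 7.42, 7.55 and 7.48 at 800 ng/ml. Its 800 ng/ml arrays were above every other array, but replicate 1 was almost tied with untreated replicate 3, both at 7.42. The difference from untreated was 0.57 ± 0.32 with 9 arrays and 0.10 ± 0.11 with 8. PPARG, the adipogenic form, had group means of 6.06 ± 0.54, 6.32 ± 0.11 and 6.25 ± 0.11 (SD, n = 3), with overlap outside untreated replicate 2.

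PPAR targets were read from a list of 14, of which 12 were measured and none was called. With 8 arrays 10 of 12 were lower at 200 ng/ml than untreated, with a median of −0.11 against −0.016 over all genes, and 3 of 12 had an unadjusted limma p under 0.05, where 11.3% of all genes did. These were CREB3L3, a liver transcription factor of lipid metabolism, at −0.45 ± 0.12, the fatty acid binding protein FABP1 at −0.55 ± 0.16 and the lipid droplet protein PLIN2 at −0.32 ± 0.11. With 9 arrays their differences were −0.05 ± 0.29, −0.23 ± 0.27 and 0.0022 ± 0.26, and 0 of 12 had an unadjusted limma p under 0.05. FABP1 had log2 signals of 7.70, 6.91 and 8.01 in untreated replicates 1, 2 and 3, 7.06, 7.33 and 7.53 at 200 ng/ml and 7.67, 7.62 and 7.64 at 800 ng/ml. Its 200 ng/ml arrays were below every array other than untreated replicate 2. With 9 arrays 8 of the 12 were higher at 200 ng/ml, with a median of 0.053, so the direction of the list turned with untreated replicate 2. At 800 ng/ml the list stood at 6 higher and 6 lower with 8 arrays (median −0.030) and 11 higher and 1 lower with 9 (median 0.21). The 1 lower with 9 arrays was CYP4A11, at −0.69 (limma p 0.0155, adjusted p 0.659) and at −0.50 with 8. Between the doses 9 were higher and 3 lower at 800 ng/ml, with a median of 0.16 against 0.013 over all genes. There the groups did not overlap for 6 of 12 (5 higher, 1 lower), against 21.9% of all genes. With 8 arrays 2 of 12 had an unadjusted limma p under 0.05 between the doses, against 15.3%.

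The orphan receptors of the NR2 family have no established hormone. NR2C2 (TR4) had log2 signals of 8.44, 7.25 and 8.51 in untreated replicates 1, 2 and 3, 8.55, 8.50 and 8.51 at 200 ng/ml and 8.64, 8.65 and 8.60 at 800 ng/ml. Its 800 ng/ml arrays were above every other array, by 0.56 ± 0.29 against untreated with 9 arrays and 0.15 ± 0.10 with 8, and by 0.11 ± 0.093 against 200 ng/ml. Its close relative NR2C1 (TR2) had signals of 7.12, 5.52 and 6.99 in untreated replicates 1, 2 and 3, 6.83, 6.82 and 6.79 at 200 ng/ml and 7.04, 6.86 and 6.95 at 800 ng/ml. Its 200 ng/ml arrays were below untreated replicates 1 and 3 and above untreated replicate 2, and the difference was 0.27 ± 0.35 with 9 arrays and −0.24 ± 0.11 with 8. NR2F6 (EAR2) had signals of 8.07, 6.89 and 7.97 in untreated replicates 1, 2 and 3, 8.32, 8.07 and 8.10 at 200 ng/ml and 7.66, 7.97 and 7.92 at 800 ng/ml. Its 800 ng/ml arrays were all below its 200 ng/ml arrays, a difference of −0.31 ± 0.12 with 8 arrays (limma adjusted p 0.29), while its difference at 200 ng/ml against untreated was 0.52 ± 0.29 with 9 arrays and 0.14 ± 0.14 with 8.

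Some receptors of this set are known for neural expression. NR2E1 (TLX), a factor of neural stem cells, had log2 signals of 4.15, 5.36 and 4.27 in untreated replicates 1, 2 and 3, 4.33, 4.20 and 4.54 at 200 ng/ml and 4.14, 3.97 and 4.25 at 800 ng/ml, with untreated replicate 2 the highest array, and differed by −0.24 ± 0.13 from 200 to 800 ng/ml. NR2E3, the photoreceptor form, had group means of 4.95 ± 0.59, 4.94 ± 0.29 and 4.57 ± 0.38 (SD, n = 3) and differed by −0.38 ± 0.21 from 200 to 800 ng/ml, with overlapping arrays. NR2F1 (COUP-TF1), a factor of cortical patterning, had means of 6.43 ± 0.15, 6.30 ± 0.02 and 6.21 ± 0.22 and overlapping groups. Neural and glial markers were high on 2 arrays. Over 14 measured of 16 listed genes the mean log2 signal was 5.86 and 5.85 in 800 ng/ml replicates 2 and 3, against 4.13 to 4.62 on the other 7 arrays. GFAP, the astrocyte filament, was at 7.88 and 7.75 there and at 4.54 in replicate 1. In those replicates NR2E1 was at 3.97 and 4.25 and RORB at 4.46 and 4.31, within or below the span of the other arrays. In NR1D2, NR4A2 and ESR1 the 3 arrays at 800 ng/ml kept to 1 side of the 200 ng/ml arrays with replicate 1 included. These 3 were already named among the receptors whose dose groups did not overlap, so the side of replicate 1 follows from that choice. Markers of blood cells, fibroblasts and endothelium were highest in untreated replicate 2 (means of 6.42, 5.56 and 5.12). Cholangiocyte markers were highest there too, at 7.01 against 6.79 to 6.99 on the other arrays, and hepatocyte markers lowest, at 9.65 against 9.92 to 10.03. The part of these markers in the differences from untreated or between the doses was not tested.

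NR5A1 (SF-1), the regulator of steroid hormone synthesis, had log2 signals of 6.53, 5.78 and 6.63 in untreated replicates 1, 2 and 3, 6.72, 6.67 and 6.78 at 200 ng/ml and 6.92, 6.82 and 6.73 at 800 ng/ml. Both dosed groups were above the untreated arrays, by 0.41 ± 0.23 at 200 and 0.51 ± 0.23 at 800 ng/ml with 9 arrays (limma p at 800 ng/ml 0.0496, adjusted p 0.659). With 8 arrays these were 0.14 ± 0.11 and 0.24 ± 0.11. NR6A1 (GCNF), a germ cell factor that represses pluripotency genes, had group means of 8.84 ± 0.47, 9.21 ± 0.14 and 9.03 ± 0.038 (SD, n = 3), and its 800 ng/ml arrays were below its 200 ng/ml arrays, a difference of −0.19 ± 0.11. Of 18 coregulators such as the NCOA coactivators and the NCOR corepressors, 14 were measured and none was called. With 8 arrays 0 had an unadjusted limma p under 0.05, and 6 were higher and 8 lower at 200 ng/ml and 8 higher and 6 lower at 800 ng/ml. With 9 arrays 12 of 14 were higher at each dose than untreated, at medians of 0.29 and 0.32.

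**Figure D4:**
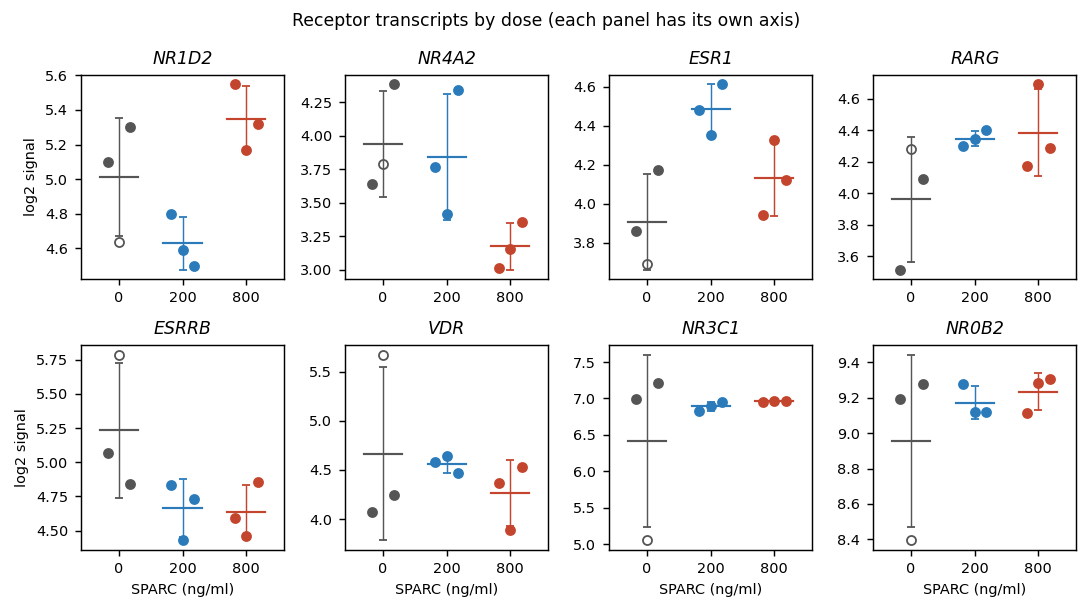
Log2 signal (vertical axes, 1 per panel) against SPARC dose in ng/ml (horizontal axes) for 8 receptors. Points are arrays, with untreated replicate 2 open, the line is the mean and the bar the SD of 3 arrays. NR4A2 is lowest at 800 ng/ml and ESR1 highest at 200 ng/ml, while for VDR, NR3C1, NR0B2 and ESRRB the open point sets the untreated spread.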

How the data were processed

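Total RNA of 9 HepG2 samples (3 untreated, 3 at 200 ng/ml and 3 at 800 ng/ml SPARC, 24 h) was hybridised to 1-colour arrays. The authors deposited these arrays as log2 values, 1 for each transcript cluster. Their R version was 3.0, per the submitters' processing notes. The sources used here do not give the normalization, background correction or filters. The log2 scale was read from the range of the values. The table holds 21448 clusters, of which the platform annotation gave 1 gene symbol to 17709, several to 0 and none to 3739. The brightest cluster per gene was kept (17687 genes), and RefSeq names (GRCh38.p14, by Entrez identifier) changed 0 symbols.

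A limma 3.58.1 model (R 4.3.3, lmFit, eBayes, two-sided) held all 3 groups and gave 95% intervals. A gene was called where its p, adjusted over the 17687 genes by Benjamini-Hochberg, was under 0.05. The fit was tested on simulated data. Alternatives were other normalizations and filters, array weights, a replicate block and leaving out each array. The members, lists and fits were chosen with earlier results of these data known. Group values are given for every measured receptor. Differences are given for the 6 receptors with the smallest p per comparison with 9 or 8 arrays and for any called in a fit that left out 1 array, and at most 3 genes are named per list and comparison. Other differences were picked after their values were seen. The number of arrays limits the precision.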

Additional observations from a re-analysis of the deposited data

Results flagged for a closer look

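NR1D2 was picked out because its 3 arrays at 200 ng/ml were all below the untreated mean of 5.01 and its 3 arrays at 800 ng/ml all above it. That ordering rests on untreated replicate 2. The mean of untreated replicates 1 and 3 alone was 5.20, and 800 ng/ml replicate 2 at 5.17 lay below it. The difference between the doses was 0.72 on the log2 scale, with a limma adjusted p of 0.999 over all 9 arrays and 0.167 without untreated replicate 2, so it did not pass. Over 20 settings, the main fit among them, the difference stayed between 0.61 and 0.81, and its lowest limma adjusted p was 0.0638, with array weights. NR1D2 was dimmer than the median gene, so the filter on the dimmest 50% of genes removed it. With 3 arrays a group, no Dixon test of single values was run.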

How the results depend on the processing

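Leaving out untreated replicate 2 turned the sign of 17 of the 38 receptors at 200 ng/ml and of 14 at 800 ng/ml against untreated, and of 0 between the doses. Array weights, which gave that array 0.040 and untreated replicate 1 10.66, called 1971, 732 and 6 of the 17687 genes (200 against untreated, 800 against untreated, 800 against 200). Among the 38 receptors they called 6 (RARG, ESR1, NR1D2, NR3C2, RXRG and ESRRB), 1 (RARG) and 0. Array weights over the 8 other arrays, added after the data were seen, called 0 receptors. Leaving out each array in turn gave 0 receptors called, and 0 to 12 genes at 800 ng/ml against untreated and 0 to 15 between the doses, the higher counts without 800 ng/ml replicate 1. At 200 ng/ml VDR ranged from −0.39 to 0.41 and NR2C1 from −0.24 to 0.56 when arrays were left out, and at 800 ng/ml NR5A2 from −0.14 to 0.22. VDR and NR2C1 were 0.45 and −0.30 with array weights, 0.38 and −0.25 with array weights on 8 arrays, and 0.32 and −0.18 with quantile normalization of 8 arrays. NR5A2 was −0.060 with quantile normalization, −0.081 with array weights, and −0.14 with either on 8 arrays. The cause was not tested. The replicate number as a block called 0 genes and 0 receptors in each comparison, and same-numbered samples correlated at −0.25 to 0.11 in their deviations from the group mean. With few arrays a group and untreated replicate 2 apart, these values cannot show whether the numbers pair the samples. The alternatives were run on the receptors with the smallest p in each comparison and on VDR, NR2C1 and NR5A2. In 521 cases a receptor's value kept direction and side of the threshold, or the receptors' median stayed within a set margin. That margin was the SD within groups of the receptors' median on each array, and direction was not checked. The median at 800 ng/ml against untreated counted as kept, though it went from 0.12 to −0.026 without untreated replicate 2. In 13 cases a receptor's value reversed and in 5 it newly passed. Filters on the dimmest 25% and 50% of genes kept 31 and 20 of the 38 receptors. An offset for linear values was not run because the values are log2.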
